A study of Mus musculus and Rattus norvegicus with 18 samples.

Results

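Narciclasine, given with TGF-β1, changed 2863 genes in the same direction and 1049 genes in opposite directions in mouse tubular epithelial cells (TECs) and rat kidney fibroblasts of the line NRK49F, of 9388 genes that could be compared. Of 27 gene lists, those of DNA replication and mitosis had the most opposite members, 33 of 37 and 36 of 37, all higher with narciclasine in TECs and lower in NRK49F. The members are genes matched between the species by symbol. Of 22322 mouse and 22050 rat entries, 15957 upper-cased symbols occurred once in each table, and 9388 of these had at least 1 CPM (a count per 1000000 counts of its library) in 3 or more of the 6 libraries of each cell kind. Of the other 6569 matched symbols, 1635 passed that level in TECs alone, 473 in NRK49F alone and 4461 in neither. Cspg4 was just inside, with a third-highest library of 97.9 CPM in TECs and 1.00 CPM in NRK49F, and Casp12 was just outside, with 0.987 CPM in TECs and 14.3 CPM in NRK49F. A match by symbol stands for orthology here and was not checked by sequence.

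Each of the 4 groups compared had 3 libraries of polyadenylated RNA. T+N_TECs were primary tubular epithelial cells from mouse kidney, held with 20 nM narciclasine for 2 h and then with narciclasine and 5 ng/ml TGF-β1 for 24 h. Tgfb_TECs received the TGF-β1 without narciclasine, and Con_TECs received neither. T+N_49F, Tgfb_49F and Con_49F were the same treatments of NRK49F. Per the labels' protocols all cells were grown in 10% fetal bovine serum and starved of serum for 6 h before treatment. No library had narciclasine without TGF-β1, so its own effect and one on the response to TGF-β1 cannot be told apart. Cell kind and species go together, so a difference between TECs and NRK49F cannot be told apart from a difference between mouse and rat. NRK49F is 1 line, and the TEC replicates are not stated to be separate animals, so the p-values measure only the spread between these libraries.

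The 12 libraries held 14695732 to 22867693 counts. Replicate 2 stood apart in NRK49F. For pairs with it, squared differences within a group averaged 7.58 to 11.4 times the counting variance. They averaged 3.13 to 3.34 times for the other NRK49F pairs and 2.00 to 3.70 times in TECs. Of 15 tubular epithelial markers, 14 in T+N_TECs and 13 in Tgfb_TECs averaged at least 1 CPM, whereas Slc34a1, a proximal tubule phosphate transporter, was below 1 CPM. All 10 endothelial markers also reached 1 CPM in both TEC groups, with summed levels of 134.5 to 140.9 CPM in T+N_TECs and 145.9 to 153.6 CPM in Tgfb_TECs. Of 15 fibroblast markers, 8 reached 1 CPM in each TEC group, with summed levels of 968.6 to 999.6 CPM in T+N_TECs and 1260 to 1318 CPM in Tgfb_TECs. In NRK49F, 10 of 14 fibroblast markers in T+N_49F and 11 in Tgfb_49F reached that level. Thy1 was at 0 in T+N_49F and near 0 in Tgfb_49F, and Dcn and Fap averaged below 1 CPM in both groups.

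Narciclasine is a plant alkaloid, found in daffodils, which inhibits protein synthesis by binding the large subunit of the ribosome. TGF-β1 signals through receptor kinases and SMAD proteins, is known to hold many epithelial cells out of the cell cycle, and drives fibroblasts to make collagen and other matrix. In fibroblasts it also raises serine and glycine synthesis through the transcription factor ATF4, which supplies amino acids for collagen. The comparison asks how far the narciclasine effect on TGF-β1-treated cells is shared by an epithelial and a fibroblast target of the kidney.

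In what follows, a level is a scaled CPM, which is the CPM of a library after TMM scaling within its own cell kind. A log2 change is the log2 ratio of T+N to Tgfb libraries, given with its standard error (SE), and the difference is the log2 change in TECs minus that in NRK49F. Values given beside a cell kind with no unit are log2 changes. A gene passed a test at an adjusted p under 0.05 in edgeR's quasi-likelihood test, adjusted over all genes tested. Levels are not compared between the cell kinds, whose tables were counted and scaled separately.

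Of the 9388 genes, 2864 (30.5%) were higher and 2426 (25.8%) lower in T+N_TECs than in Tgfb_TECs. In NRK49F 3284 (35%) were higher and 3298 (35.1%) lower in T+N_49F than in Tgfb_49F. Of all genes tested in each table, 52.1% of 12988 passed in TECs and 67.5% of 11193 in NRK49F. For 4432 genes (47.2%) the T+N and Tgfb libraries were fully separate in both cell kinds, so a lack of overlap in a gene described below is common. It was also a condition for naming the 8 largest opposite and shared changes each way. Without replicate 2 of T+N_49F and of Tgfb_49F together, 5758 genes had a difference, 2819 moved the same way and 994 opposite ways. The difference between the cell kinds passed for 5888 genes (62.7%), with 2966 (31.6%) more positive and 2922 (31.1%) more negative in TECs. With the 3 scalings tried in place of the TMM factors of each cell kind, 2667 to 2887 genes were more positive and 3019 to 3286 more negative in TECs. Changes were smaller in TECs: the SD of the log2 changes over all genes was 0.37 in TECs and 0.71 in NRK49F. Among the genes that passed, 219 changed at least 2-fold in TECs and 1142 in NRK49F.

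Among the 3912 genes that passed in both cell kinds, 73.2% moved the same way and 26.8% moved opposite ways. Those moving the same way were 1537 genes higher in both (16.4% of all) and 1326 lower in both (14.1%). Scaling by total counts alone turned this split to 1931 higher and 1042 lower, and 1 set of scaling factors over all 12 libraries turned it to 1366 higher and 1466 lower. Those moving opposite ways were 695 genes higher in TECs and lower in NRK49F (7.4%) and 354 lower in TECs and higher in NRK49F (3.77%). Every one of these 1049 also passed the test of the difference, which passed changes of opposite sign in the same libraries make likely. With those joint factors the opposite genes split into 593 and 465. At least 2-fold changes in both cell kinds were seen for 48 genes in the same direction and 38 in opposite directions. A further 2670 genes passed in NRK49F alone, of which 2250 passed the test of the difference, and 1378 in TECs alone, of which 677 did. Across genes, which are not independent replicates, the log2 changes of the cell kinds had a Pearson correlation of 0.25 and a Spearman correlation of 0.32.

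**Figure D1:**
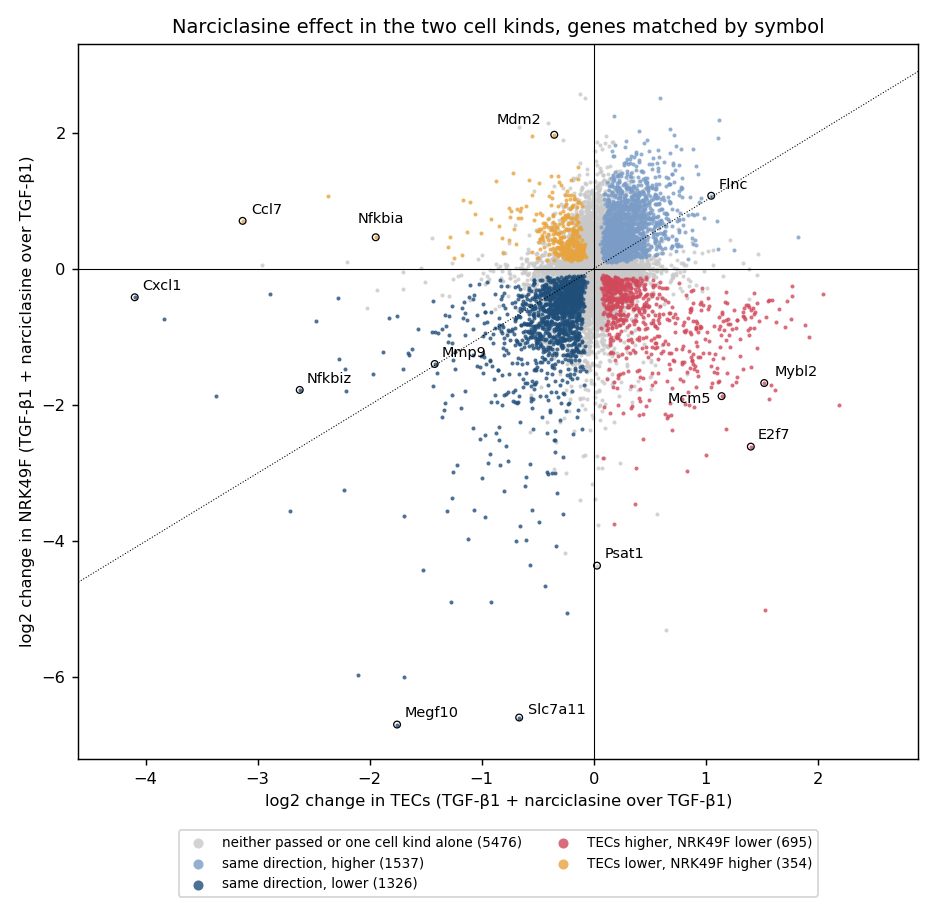
Log2 change of each of the 9388 genes with narciclasine in TECs (horizontal axis) and in NRK49F (vertical axis), each T+N over Tgfb, 3 libraries a group, with the dotted line at equal change. Colours mark the 695 and 354 genes that moved opposite ways, the 1537 higher and 1326 lower in both, and the rest, and the cloud is wider along the NRK49F axis, where the SD is 0.71 against 0.37 in TECs.

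Genes of DNA replication and S phase rose in TECs and fell in NRK49F. Of 37 members tested, 35 rose in TECs and none fell, while 35 fell in NRK49F and 1 rose. All 37 passed the test of the difference, more positive in TECs, against 31.6% of all genes, and 33 were opposite, against 7.4% of all genes. The list had a median log2 change of 0.85 in TECs and -1.10 in NRK49F, where the medians of all genes were 0.02 in TECs and -0.0035 in NRK49F. In bulk RNA, fewer cells in S phase and less of these RNAs per cell cannot be told apart.

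Cdc6, which loads the replicative helicase onto origins, had 10.9, 12.2 and 13.1 CPM in T+N_TECs, against 6.60, 4.59 and 6.60 CPM in Tgfb_TECs. NRK49F had 9.05, 7.87 and 9.49 CPM in T+N_49F, against 57.1, 62.0 and 56.7 CPM in Tgfb_49F. The 3 T+N libraries lay above all Tgfb libraries in TECs and below all of them in NRK49F. Its log2 change was 1.00 ± 0.12 in TECs and -2.74 ± 0.087 in NRK49F, and the difference of 3.74 ± 0.15 was the largest of the list (adjusted p 3.69e-19). E2f7, an E2F family repressor that is itself made in S phase, had 13.2, 13.2 and 11.7 CPM in T+N_TECs, against 4.55, 5.35 and 4.61 CPM in Tgfb_TECs. The NRK49F libraries had 2.96, 2.35 and 3.06 CPM in T+N_49F, against 17.3, 17.3 and 16.3 CPM in Tgfb_49F. Its groups did not overlap and moved in opposite directions, which were conditions for naming the largest opposite genes. The difference of 4.02 ± 0.18 was the largest among opposite genes with at least 5 CPM and no overlap (adjusted p 2.81e-18).

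Mcm5, a subunit of the replicative helicase on mouse chromosome 8, had 38.6, 40.0 and 36.6 CPM in T+N_TECs, against 17.96, 16.4 and 17.7 CPM in Tgfb_TECs. It had 13.6, 13.3 and 16.9 CPM in T+N_49F, against 50.8, 57.4 and 51.7 CPM in Tgfb_49F. Again no library of one treatment reached those of the other in either cell kind. The log2 change was 1.14 ± 0.064 in TECs and -1.87 ± 0.091 in NRK49F, with a difference of 3.01 ± 0.11 (adjusted p 3.88e-20). Exo1, a DNA repair exonuclease, and Clspn, a checkpoint adaptor at replication forks, differed by 3.54 ± 0.18 and 3.39 ± 0.12. Mcm10, a helicase activator, had a log2 change of 1.41 in TECs and -1.44 in NRK49F. The exceptions to the pattern of the list were few. Prim1, the primase subunit, rose in both cell kinds, by 1.82 in TECs and 0.46 in NRK49F. E2f2, an E2F activator, and Gins3, a helicase partner, did not pass in TECs (-0.08 and 0.37), although Gins3 passed there, at 0.59, without replicate 1 of Tgfb_TECs. Rfc5, a clamp loader subunit, did not pass in NRK49F (-0.13), but did so, at -0.19, without replicate 3 of T+N_49F.

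Control libraries are given for reference, and each treated group is set against the same Tgfb libraries. Cdc6 averaged 32.2 ± 1.31 CPM in Con_TECs and 4.92 ± 0.781 CPM in Con_49F (SD, n = 3 each). Mcm5 averaged 83.7 ± 3.24 CPM in Con_TECs and 10.5 ± 1.28 CPM in Con_49F (SD, n = 3 each). For both genes the Tgfb libraries lay below their controls in TECs and above their controls in NRK49F, and the T+N libraries lay between the Tgfb and control libraries in each cell kind. No test was run on the control libraries.

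The mouse promoter of Mcm5 is shown because E2F factors are known to act at replication genes. It is the 250 bases before the start used in the RefSeq promoter table, at chr8:75109259-75109508 on the + strand of GRCm38.p6, the assembly that mm10 names. The gene's span in the RefSeq gene table begins at 75109468, inside this window. Capitals mark 2 overlapping matches, 1 on each strand, to the E2F motif TTTNGCGC.
Mcm5: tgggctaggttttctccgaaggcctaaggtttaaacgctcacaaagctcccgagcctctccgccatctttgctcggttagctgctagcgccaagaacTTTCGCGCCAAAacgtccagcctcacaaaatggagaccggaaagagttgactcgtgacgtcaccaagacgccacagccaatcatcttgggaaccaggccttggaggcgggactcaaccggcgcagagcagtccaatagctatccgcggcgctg
The motif, chosen after these results were seen and searched on both strands, was in 16.2% of 37 promoters of the DNA replication list and in 4.97% of 704 promoters of genes higher in TECs and lower in NRK49F. It was in 2.14% of 9805 promoters of tested genes and in 1.13% of all 32851 promoters in the table, and no match overlapped a match to the other motifs searched below. A gene can have several promoters in the table, and a match in this window is a description of letters, not a binding site.

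Genes of mitosis and the spindle moved in the same opposite ways. Of 37 tested, 36 rose in TECs and none fell, against 30.5% and 25.8% of all genes, and all 37 fell in NRK49F, against 35.1%. The 37 differences all passed, more positive in TECs, and 36 genes were opposite. The median log2 change was 1.19 in TECs and -0.82 in NRK49F. The only member that did not pass in TECs was Pttg1, securin (-0.12).

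Ccna2, cyclin A2, had 48.2, 46.9 and 46.6 CPM in T+N_TECs, against 18.9, 21.6 and 18.6 CPM in Tgfb_TECs. It had 29.0, 24.3 and 31.2 CPM in T+N_49F, against 90.2, 92.9 and 83.1 CPM in Tgfb_49F. Neither cell kind had overlapping groups. Its difference of 2.93 ± 0.10 was the largest of the mitosis list (adjusted p 3.97e-20), from a log2 change of 1.27 in TECs and -1.66 in NRK49F. Mki67, the proliferation marker Ki-67, had 186, 192 and 175 CPM in T+N_TECs, against 64.1, 60.9 and 61.9 CPM in Tgfb_TECs. In NRK49F it had 424, 344 and 406 CPM in T+N_49F, against 549, 522 and 543 CPM in Tgfb_49F. The separation of Mki67 was wide in TECs and narrower in NRK49F, with a log2 change of 1.56 ± 0.039 in TECs and -0.46 ± 0.067 in NRK49F. The NRK49F call of Mki67 was lost when the control libraries joined the fit, with a change of -0.44. Ndc80, part of the kinetochore, rose by 1.89 in TECs, with a log2 change of -0.82 in NRK49F. Cdk1, the mitotic kinase, and Mybl2, a transcription factor of late cell cycle genes, differed by 2.65 ± 0.10 and 3.20 ± 0.11. In Con_TECs Mki67 averaged 421 ± 6.06 CPM and in Con_49F 468 ± 144 CPM (SD, n = 3 each).

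**Figure D2:**
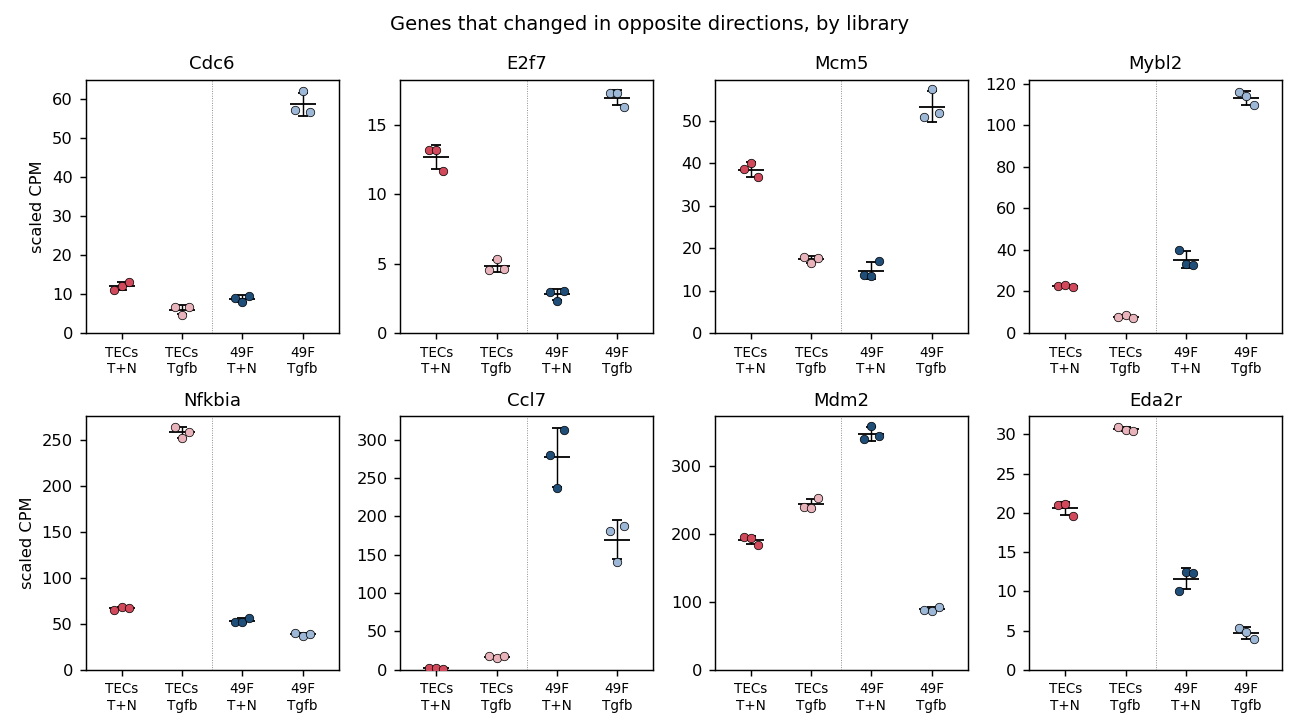
Scaled CPM by library for 8 genes that moved opposite ways, with T+N left of Tgfb in TECs and in NRK49F (49F), each point 1 of 3 libraries and the bars the mean and SD. Cdc6, E2f7, Mcm5 and Mybl2 are higher with narciclasine in TECs and lower in NRK49F, and Nfkbia, Ccl7, Mdm2 and Eda2r the reverse. All 8 are among the largest opposite genes, for which no overlap between groups was a condition.

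Erfe and Pdzd2, which are not cell cycle genes, were also among the 8 largest differences of genes higher in TECs and lower in NRK49F with at least 5 CPM and no overlap. Erfe, a secreted hormone that lowers hepcidin, had 34.9, 36.4 and 32.7 CPM in T+N_TECs, against 29.9, 30.7 and 30.9 CPM in Tgfb_TECs. It had 1.45, 0.625 and 1.21 CPM in T+N_49F, against 15.4, 15.1 and 13.6 CPM in Tgfb_49F. The small rise of 0.18 ± 0.058 in TECs lost its call without replicate 2 of T+N_TECs, where it was 0.15. In NRK49F the log2 change was -3.75 ± 0.21, and the difference was 3.94 ± 0.18. Pdzd2, a PDZ domain protein, rose by 0.37 in TECs and had a log2 change of -3.46 in NRK49F, with no overlap in either cell kind.

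Tgm2, transglutaminase 2, which cross-links matrix proteins, rose by 0.66 in TECs, with 331, 337 and 337 CPM in T+N_TECs, against 216, 214 and 204 CPM in Tgfb_TECs. In NRK49F its level was 2.18, 1.93 and 2.48 CPM in T+N_49F, against 7.76, 11.9 and 9.79 CPM in Tgfb_49F. That is a log2 change of -2.16 and a difference of 2.82 ± 0.15 (adjusted p 1.92e-15). Smtn, smoothelin, a smooth muscle actin-binding protein, had a log2 change of 0.68 ± 0.03 in TECs and -1.24 ± 0.059 in NRK49F. Hspb1, a small heat shock protein, rose by 0.96 in TECs, with a log2 change of -0.49 in NRK49F. Krt8, a keratin of simple epithelia, rose by 0.30 in TECs, with a log2 change of -0.25 in NRK49F, where it was also well above 1 CPM. Of the 24 contractile and cytoskeletal genes tested, 18 rose and 3 fell in TECs, against 30.5% and 25.8% of all genes, 8 rose and 9 fell in NRK49F, near 35% and 35.1%, and 7 were higher in TECs and lower in NRK49F, against 7.4% of all genes. Des, desmin, fell in both, by less in TECs (-0.76 ± 0.087) than in NRK49F (-2.82 ± 0.37), where its levels were below 4 CPM. Myh11, smooth muscle myosin heavy chain, did not pass in TECs (-0.11 ± 0.08) and rose in NRK49F (1.21 ± 0.15).

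Several genes that p53 is known to activate were lower in TECs and higher in NRK49F. Mdm2, the ubiquitin ligase that degrades p53, had 196, 195 and 184 CPM in T+N_TECs, against 241, 239 and 254 CPM in Tgfb_TECs. The NRK49F libraries had 339.8, 360.1 and 344 CPM in T+N_49F, against 88.2, 86.7 and 92.2 CPM in Tgfb_49F. The T+N libraries were all lower in TECs and all nearly 4 times higher in NRK49F. The log2 change was -0.35 ± 0.032 in TECs and 1.97 ± 0.046 in NRK49F, a difference of -2.32 ± 0.056 (adjusted p 1.19e-24).

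Cdkn1a, the cell cycle inhibitor p21, had 266, 262 and 271 CPM in T+N_TECs, against 309.7, 321 and 304 CPM in Tgfb_TECs. It had 284, 280.4 and 278 CPM in T+N_49F, against 134, 128 and 134 CPM in Tgfb_49F. The groups did not overlap, and the shift was small in TECs and about a doubling in NRK49F, with a difference of -1.32 ± 0.051 (adjusted p 1.28e-19). Eda2r, a receptor for ectodysplasin A2, differed by -1.87 ± 0.15, and Ccng1, cyclin G1, fell in TECs (-0.29) and rose in NRK49F (0.67). Of the 17 p53 target genes tested, 3 rose and 7 fell in TECs, against 30.5% and 25.8% of all genes, and 8 rose and 5 fell in NRK49F, against 35% and 35.1%. The difference passed for 13, with 10 more negative in TECs, against 31.1% of all genes. In all, 5 of the list were lower in TECs and higher in NRK49F, against 3.77% of all genes. Not every member moved so. Gadd45a, a growth arrest gene, did not pass in TECs (-0.08) and fell in NRK49F (-1.44 ± 0.072), and Btg2, an antiproliferative gene, fell in both (-1.29 in TECs and -0.98 in NRK49F). Gadd45b, a related gene outside the list, had 145, 144 and 150.0 CPM in T+N_TECs, against 205, 200.2 and 213 CPM in Tgfb_TECs. It had 104, 109 and 110.5 CPM in T+N_49F, against 41.1, 42.4 and 52.0 CPM in Tgfb_49F, and its difference was -1.75 ± 0.077. It was named among the largest opposite genes, for which separate libraries in both cell kinds were a condition.

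Slfn2 is a Schlafen family gene of growth control, Mgmt repairs alkylated guanine in DNA, and Mmab is an enzyme of cobalamin metabolism. They were among the 8 largest negative differences of opposite genes with at least 5 CPM and no overlap. Slfn2 had a log2 change of -1.16 ± 0.09 in TECs and 1.02 ± 0.056 in NRK49F. For Mgmt the change was -0.72 ± 0.14 in TECs and 1.402 ± 0.15 in NRK49F, and for Mmab -0.38 ± 0.072 in TECs and 1.36 ± 0.13 in NRK49F. The lack of overlap in both cell kinds was a condition of this choice.

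Most NF-κB pathway genes tested fell with narciclasine in TECs. Of 22 subunits, inhibitors and receptors tested, 1 rose and 15 fell in TECs, against 30.5% and 25.8% of all genes. In NRK49F 7 rose and 8 fell, near the shares of all genes (35% and 35.1%). The difference passed for 15, with 12 more negative in TECs, against 31.1% of all genes. The median log2 change was -0.57 in TECs and -0.04 in NRK49F. The sum of 15 leukocyte markers was also lower in TECs, 31.1 to 31.6 CPM in T+N_TECs, against 74.3 to 80.9 CPM in Tgfb_TECs, and their part in these changes was not tested.

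Nfkbia, the inhibitor IκBα, which NF-κB itself induces, had 65.5, 68.4 and 67.3 CPM in T+N_TECs, against 264, 252 and 259 CPM in Tgfb_TECs. It had 51.6, 51.7 and 56.5 CPM in T+N_49F, against 40.1, 36.5 and 39.3 CPM in Tgfb_49F. All T+N_TECs libraries were several-fold below the Tgfb_TECs libraries, and all T+N_49F libraries were above the Tgfb_49F level. The log2 change was -1.95 ± 0.035 in TECs and 0.46 ± 0.067 in NRK49F, and the difference was -2.41 ± 0.069 (adjusted p 7.34e-23). In the controls it averaged 33.99 ± 1.13 CPM in Con_TECs and 80.0 ± 0.690 CPM in Con_49F (SD, n = 3 each), so the Tgfb libraries were above their controls in TECs and below them in NRK49F.

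Tnfaip3, the ubiquitin-editing inhibitor A20, had 226, 227 and 226 CPM in T+N_TECs, against 733, 754 and 716 CPM in Tgfb_TECs. NRK49F had 19.3, 21.0 and 17.8 CPM in T+N_49F, against 20.2, 20.3 and 19.6 CPM in Tgfb_49F. It fell in TECs (-1.70 ± 0.028), whereas in NRK49F its groups overlapped and the change of -0.05 ± 0.091 did not pass. The difference passed at -1.65 ± 0.074 (adjusted p 3.63e-18). The fit of the difference shares 1 spread per gene between the cell kinds, and this SE is below the 0.091 of NRK49F. Icam1, a leukocyte adhesion molecule, had a log2 change of -1.18 ± 0.037 in TECs and 0.21 ± 0.046 in NRK49F, and Birc3, an inhibitor of apoptosis, -0.65 ± 0.047 in TECs and 0.74 ± 0.10 in NRK49F. Both were therefore lower in TECs and higher in NRK49F. Rela, the p65 subunit, did not pass in TECs (0.03) and rose in NRK49F (0.58).

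The Nfkbia promoter is shown because it is a known target of NF-κB. It is the RefSeq sequence of the 250 bases before the start, at chr12:55492648-55492897 on the - strand of GRCm38.p6, with the match to an NF-κB motif in capitals. The motif searched, on both strands, was GGGA and TTCC with any 2 bases between them, and this match is on the opposite strand.
Nfkbia: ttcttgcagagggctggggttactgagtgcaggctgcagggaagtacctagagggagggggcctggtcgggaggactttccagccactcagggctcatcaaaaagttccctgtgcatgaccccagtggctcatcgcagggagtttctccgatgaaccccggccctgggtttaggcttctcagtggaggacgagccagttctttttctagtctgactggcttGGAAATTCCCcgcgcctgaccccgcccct
This motif, also chosen after results were seen, was in 13.6% of 22 promoters of the NF-κB list, with matches only in Nfkb2 and Nfkbia. In the inflammatory list 31.2% of 16 promoters had it, those of Csf1, Cxcl1, Cxcl10, Cxcl3 and Il6. Both lists were chosen by hand, and a match here too is a description of letters, not a binding site. The motif's share in wider sets was lower. The motif was in 1.22% of the promoters of tested genes and in 1.21% of all promoters. Genes lower in TECs and higher in NRK49F were near these shares, with the motif in 1.31% of their promoters.

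Most inflammatory cytokines and chemokines fell in each cell kind, and 11 of 18 tested fell in both, against 14.1% of all genes. In TECs 15 fell and 1 rose, against 25.8% and 30.5% of all genes. In NRK49F 12 fell and 4 rose, against 35.1% and 35%. The difference passed for 15, with 11 more negative and 4 more positive in TECs, against 31.1% and 31.6%. Median log2 changes were -1.24 in TECs and -0.72 in NRK49F. With a minimum of 5 CPM, 9 of 11 fell in TECs and 7 of 11 in NRK49F. Without replicate 2 of T+N_49F and of Tgfb_49F together, 14 could be tested and 7 differences were more negative in TECs.

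Ccl7, a monocyte chemokine, had 2.09, 2.16 and 1.60 CPM in T+N_TECs, against 18.01, 15.8 and 17.7 CPM in Tgfb_TECs. It had 279.6, 237 and 313 CPM in T+N_49F, against 181, 141 and 187 CPM in Tgfb_49F. It was therefore several-fold lower in all T+N_TECs libraries and moderately higher in all T+N_49F libraries. The log2 change was -3.13 ± 0.13 in TECs and 0.70 ± 0.17 in NRK49F, with a difference of -3.84 ± 0.33 (adjusted p 8.37e-06). Its rise in NRK49F lost its call without replicate 1 of T+N_49F, where it was still 0.70, and ranged between 0.61 and 0.81 over the alternatives. Ccl2, the neighbouring monocyte chemokine gene on mouse chromosome 11, had 50.7, 45.4 and 46.9 CPM in T+N_TECs, against 217, 210.2 and 230.3 CPM in Tgfb_TECs. It had 876, 917 and 946 CPM in T+N_49F, against 872, 769 and 906 CPM in Tgfb_49F. Its NRK49F groups overlapped, and the change of 0.10 ± 0.056 there did not pass, while the fall in TECs was -2.20 ± 0.042. The difference was -2.30 ± 0.08 (adjusted p 5.58e-15), and the NRK49F change passed, as a rise of 0.16, without replicate 3 of Tgfb_49F.

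Cxcl1, a neutrophil chemokine, had 19.5, 17.0 and 20.5 CPM in T+N_TECs, against 321, 299 and 354 CPM in Tgfb_TECs. In NRK49F it had 32.7, 42.6 and 36.3 CPM in T+N_49F, against 49.7, 49.2 and 50.5 CPM in Tgfb_49F. Both cell kinds had lower levels in every T+N library, with a change of -4.10 ± 0.094 in TECs and -0.42 ± 0.082 in NRK49F. The difference of -3.68 ± 0.13 passed (adjusted p 1.98e-11), and the NRK49F call was lost when the control libraries joined the fit, with a change of -0.40. Cxcl3, a related chemokine, fell in TECs (-2.37 ± 0.17) and rose in NRK49F (1.07 ± 0.34), where its levels were only 1.396, 1.35 and 1.66 CPM in T+N_49F, against 0.699, 0.833 and 0.552 CPM in Tgfb_49F. In NRK49F only the T+N libraries reached 1 CPM for Cxcl3, so it was tested through the group where it was high. With any 1 of those T+N_49F libraries left out it was not tested. Without replicate 3 of Tgfb_49F the Cxcl3 rise was 0.94 and did not pass. Members more positive in TECs included Il1rn, the interleukin-1 receptor antagonist, with a change of -0.83 in TECs and -2.88 in NRK49F. The 95% interval of the Il1rn change in NRK49F was -3.88 to -1.88. Its difference ranged from 1.66 to 3.21 over the 19 alternatives that tested it. Cxcl10 was another such member, with 0.16 in TECs and -1.21 in NRK49F.

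The summed level of leukocyte markers was lower in T+N libraries of both cell kinds. Of the 15 markers whose sum in TECs is given above, 14 had a lower mean in T+N_TECs. At least 1 CPM on average was reached by 4 of the 15 in T+N_TECs and by 12 in Tgfb_TECs. Lyz2, a myeloid lysozyme, averaged 2.997 CPM in T+N_TECs and 21.3 CPM in Tgfb_TECs, and Itgam, an integrin of myeloid cells, 0.568 CPM in T+N_TECs and 4.61 CPM in Tgfb_TECs. In NRK49F the sum was 59.9 to 69.1 CPM in T+N_49F, against 116.9 to 121.8 CPM in Tgfb_49F, and was made almost wholly of Cd14 and Cd74, with Spi1 at 0 in both groups and Adgre1 at 0 in T+N_49F. There 9 of the 15 had a lower and 5 a higher mean in T+N_49F. Their part in the inflammatory and interferon changes was not tested.

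Interferon-stimulated genes differed by member. Of 25 tested, 3 rose in TECs, against 30.5% of all genes, and 7 fell, near the 25.8% of all genes. In NRK49F 13 rose and 4 fell, against 35% and 35.1% of all genes. Differences were more negative in TECs for 14 and more positive for 4, against 31.1% and 31.6% of all genes. Irf1, an interferon regulatory factor, had 45.4, 47.0 and 46.7 CPM in T+N_TECs, against 133, 138 and 135 CPM in Tgfb_TECs. It had 33.9, 30.0 and 35.0 CPM in T+N_49F, against 29.3, 33.96 and 34.5 CPM in Tgfb_49F. It fell in TECs (-1.54 ± 0.04), and its NRK49F groups overlapped (0.02 ± 0.083). Oas1a, a sensor of double-stranded RNA, did not pass in TECs (-0.12) and rose in NRK49F (2.57 ± 0.42), at levels below 3 CPM. It was tested under only 19 of 24 alternatives. Ifit2, an antiviral protein, rose in TECs (0.26) just within the threshold (adjusted p 0.04996), a call that was lost under 10 of 24 alternatives, and fell by 2.11 in NRK49F. Its NRK49F levels were 12.8, 15.1 and 11.9 CPM in T+N_49F, against 60.5, 51.9 and 60.3 CPM in Tgfb_49F.

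Amino acid supply genes had a median log2 change near 0 in TECs and fell in NRK49F. Of 17 tested, 7 fell and 1 rose in TECs, against 25.8% and 30.5% of all genes. All 17 fell in NRK49F, against 35.1%, so 7 were lower in both, against 14.1% of all genes. All 17 differences passed, more positive in TECs, against 31.6% of all genes. The median log2 change was -0.05 in TECs and -2.10 in NRK49F.

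Psat1, which makes phosphoserine in serine synthesis, had 105, 101 and 108 CPM in T+N_TECs, against 99.2, 106 and 102 CPM in Tgfb_TECs. It had 8.43, 6.31 and 7.71 CPM in T+N_49F, against 149.7, 158 and 151 CPM in Tgfb_49F. The TEC groups overlapped and their change of 0.03 ± 0.038 did not pass, while the NRK49F groups were about 20-fold apart. The log2 change of -4.36 ± 0.078 in NRK49F gave a difference of 4.39 ± 0.086 (adjusted p 5.02e-27). Asns, asparagine synthetase, had 227, 223 and 222 CPM in T+N_TECs, against 225, 226 and 227 CPM in Tgfb_TECs. It had 51.4, 43.3 and 48.3 CPM in T+N_49F, against 432, 418 and 429 CPM in Tgfb_49F. The TEC libraries were again alike, with a change of -0.01 ± 0.029 that did not pass and a 95% interval of -0.07 to 0.05, and the difference was 3.15 ± 0.06 (adjusted p 4.76e-27).

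Slc7a11, the cystine and glutamate exchanger, had 36.6, 34.5 and 32.2 CPM in T+N_TECs, against 52.6, 54.6 and 56.8 CPM in Tgfb_TECs. It had 1.28, 1.30 and 1.15 CPM in T+N_49F, against 131, 115 and 117 CPM in Tgfb_49F. It fell in both, with a log2 change of -0.66 ± 0.055 in TECs and -6.59 ± 0.11 in NRK49F, where it reached a very low level. The difference of 5.92 ± 0.13 (adjusted p 1.77e-25) was the largest of the genes named here. Aldh1l2, a mitochondrial folate enzyme, had a log2 change of -0.91 ± 0.058 in TECs and -4.90 ± 0.18 in NRK49F.

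The promoters of Asns and Slc7a11 are shown because ATF4 is known to act at both genes. They are the 250 bases before a start used in the RefSeq promoter table, on the - strand of GRCm38.p6, at chr6:7693210-7693459 for Asns and chr3:50443614-50443863 for Slc7a11. In the RefSeq gene table Slc7a11 spans 50364936 to 50499087, so its window lies inside the gene's span, at a start other than the outermost. Capitals mark matches on either strand to TGATGNAA, a motif of ATF4 with C/EBP partners, 1 in Asns and 2 in Slc7a11.
Asns: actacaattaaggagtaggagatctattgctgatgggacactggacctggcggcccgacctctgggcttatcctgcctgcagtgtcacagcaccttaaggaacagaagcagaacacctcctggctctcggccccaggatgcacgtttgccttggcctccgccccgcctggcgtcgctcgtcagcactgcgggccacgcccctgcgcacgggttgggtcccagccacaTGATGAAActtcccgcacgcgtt
Slc7a11: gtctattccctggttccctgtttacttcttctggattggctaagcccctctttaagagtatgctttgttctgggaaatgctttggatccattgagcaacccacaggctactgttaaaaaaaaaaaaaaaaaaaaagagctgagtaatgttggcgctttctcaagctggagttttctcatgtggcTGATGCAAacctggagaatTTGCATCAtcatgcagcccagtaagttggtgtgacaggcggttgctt
The motif was in 30% of 20 promoters of the ATF4 list below and in 17.6% of 17 promoters of the amino acid list. It was in 1.83% of promoters of tested genes and in 3.45% of all promoters, and it too was chosen after results were seen.

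ATF4 transcription factors and effectors fell in both cell kinds and more in NRK49F. Of 16 tested, 14 fell in TECs and 15 in NRK49F, against 25.8% and 35.1% of all genes, none rose in either, and 13 were lower in both, against 14.1% of all genes. The difference passed for all 16, with 14 more positive in TECs, against 31.6% of all genes. Medians were -0.45 in TECs and -1.90 in NRK49F. Trib3, a pseudokinase induced by ATF4, had 35.6, 39.2 and 37.1 CPM in T+N_TECs, against 55.5, 54.6 and 55.6 CPM in Tgfb_TECs. It had 3.96, 2.71 and 3.57 CPM in T+N_49F, against 72.4, 54.8 and 80.0 CPM in Tgfb_49F. The groups did not overlap, and the fall was modest in TECs (-0.57 ± 0.051) and more than 10-fold in NRK49F (-4.34 ± 0.20). Chac1, which degrades glutathione, differed by 3.38 ± 0.13, and Nupr1, a stress-induced chromatin protein, by 2.47 ± 0.11. Stc2, stanniocalcin 2, had a log2 change of -0.34 ± 0.11 in TECs, a call lost without replicate 2 of T+N_TECs or replicate 1 of Tgfb_TECs (-0.28 in each), and -4.07 ± 0.14 in NRK49F. Atf4 itself had 315, 300.3 and 320.3 CPM in T+N_TECs, against 346, 335 and 344 CPM in Tgfb_TECs. In NRK49F its level was 455, 439 and 451 CPM in T+N_49F, against 771, 643 and 735 CPM in Tgfb_49F. Its falls were small beside those of the list, -0.13 ± 0.029 in TECs and -0.68 ± 0.057 in NRK49F. Cebpb, a C/EBP factor, was 1 of 2 members whose difference was more negative in TECs (-1.32 in TECs and -0.83 in NRK49F).

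Endoplasmic reticulum chaperones had smaller changes in TECs than in NRK49F. Of 22 tested, 11 fell and 2 rose in TECs, against 25.8% and 30.5% of all genes, and 19 fell and 2 rose in NRK49F, against 35.1% and 35%. The difference was more positive in TECs for 19, against 31.6%, and more negative for 2. Hspa5, the chaperone BiP, had 953, 962 and 939 CPM in T+N_TECs, against 993, 1004 and 994 CPM in Tgfb_TECs. It had 513, 508 and 541 CPM in T+N_49F, against 1502, 1407 and 1516 CPM in Tgfb_49F. The TEC groups did not overlap but lay close together (-0.07 ± 0.024), and that call was lost without replicate 3 of T+N_TECs (-0.06) and with total counts alone (-0.03). In NRK49F the log2 change was -1.503 ± 0.047. Pdia4, a disulfide isomerase, had -0.25 ± 0.031 in TECs and -2.09 ± 0.044 in NRK49F, and Calr, calreticulin, -0.34 ± 0.026 in TECs and -1.81 ± 0.043 in NRK49F. Xbp1, a transcription factor of the unfolded protein response, rose in both, by 0.19 in TECs and 0.69 in NRK49F.

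Most cholesterol synthesis genes fell in both cell kinds. Of 27 tested, 22 fell in TECs and 25 in NRK49F, against 25.8% and 35.1% of all genes. In all 21 were lower in both, against 14.1%, and 25 differences were more positive in TECs, against 31.6%. The median was -0.20 in TECs and -1.23 in NRK49F. Sqle, squalene epoxidase, had a log2 change of -0.14 ± 0.035 in TECs and -2.07 ± 0.059 in NRK49F. Of 19 antioxidant target genes of NRF2, a list that also holds Slc7a11, 13 fell in TECs and 16 in NRK49F, against 25.8% and 35.1% of all genes, with 15 differences more positive in TECs, against 31.6%. Gsta4, a glutathione transferase, had a log2 change of -0.33 ± 0.15 in TECs, which did not pass, although it did so without replicate 1 of T+N_TECs (-0.45), and -2.55 ± 0.31 in NRK49F. Nqo1, a quinone reductase, did not pass in TECs (-0.21 ± 0.21) and fell in NRK49F (-1.91 ± 0.064).

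**Figure D3:**
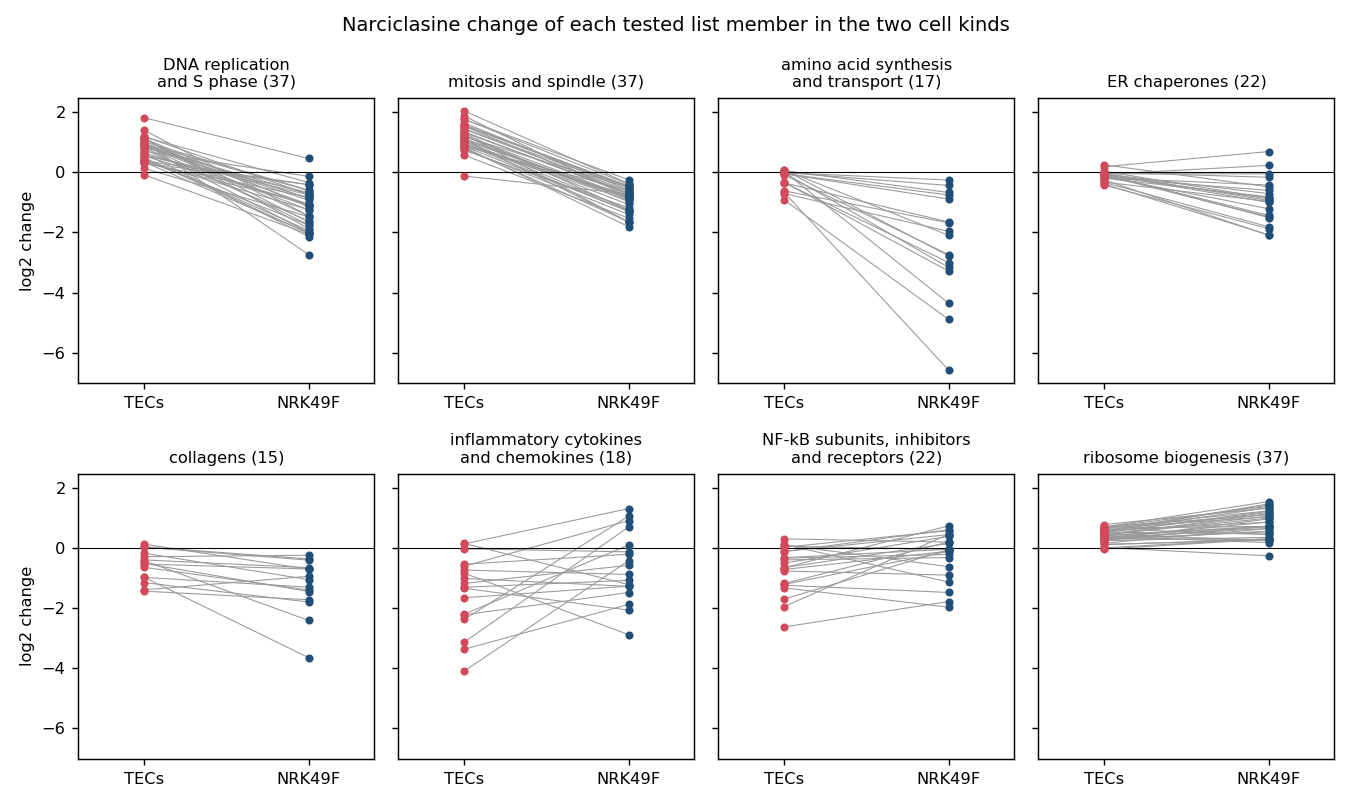
Log2 change with narciclasine (T+N over Tgfb) of each tested member of 8 gene lists, in TECs at the left and NRK49F at the right of each panel, with a line joining the points of 1 gene. Most lines of DNA replication and mitosis cross 0, and those of ribosome biogenesis stay above 0 in nearly all members. Those of amino acid supply start between -0.91 and 0.08 in TECs and end lower in NRK49F.

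Collagens fell in both cell kinds. Of 15 tested, 12 fell and 1 rose in TECs, against 25.8% and 30.5% of all genes, 14 fell in NRK49F and none rose, against 35.1% and 35%, and 11 were lower in both, against 14.1% of all genes. The median was -0.51 in TECs and -1.05 in NRK49F, and 13 of 14 differences that passed were more positive in TECs.

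Col1a1, the main fibrillar collagen chain, was the 1 collagen that fell more in TECs. It had 72.5, 81.3 and 77.0 CPM in T+N_TECs, against 204, 212 and 188 CPM in Tgfb_TECs. Its NRK49F levels were 12055, 11802 and 11928 CPM in T+N_49F, against 22644, 22203 and 23736 CPM in Tgfb_49F. The T+N libraries were all lower, and the log2 change was -1.39 ± 0.046 in TECs and -0.94 ± 0.046 in NRK49F, a difference of -0.45 ± 0.064 (adjusted p 4.52e-07). Col7a1, the anchoring fibril collagen, had 324, 332 and 325 CPM in T+N_TECs, against 435, 454 and 424 CPM in Tgfb_TECs. It had 1.73, 1.67 and 1.72 CPM in T+N_49F, against 9.54, 9.65 and 8.07 CPM in Tgfb_49F. Its fall was shallow in TECs (-0.42 ± 0.028) and several-fold in NRK49F (-2.41 ± 0.18). Col3a1, a fibrillar collagen, had -0.97 ± 0.11 in TECs and -1.30 ± 0.052 in NRK49F, and Col11a1 -0.97 ± 0.28 in TECs, where its levels were at most 2.17 CPM, and -3.65 ± 0.20 in NRK49F. Col12a1 was the member that rose in TECs (0.13), against -0.70 in NRK49F.

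Of 22 matrix glycoproteins and proteoglycans, 17 fell in TECs and 15 in NRK49F, against 25.8% and 35.1% of all genes, with 14 lower in both, against 14.1%. Fn1, fibronectin, had 12788, 13607 and 12803 CPM in T+N_TECs, against 16033, 16598 and 15554 CPM in Tgfb_TECs. It had 12423, 12090.2 and 11464 CPM in T+N_49F, against 23238, 22783 and 22262 CPM in Tgfb_49F. Every T+N library was lower, by less in TECs (-0.30 ± 0.026) than in NRK49F (-0.92 ± 0.047), and the difference was 0.63 ± 0.057 (adjusted p 6.41e-11). Postn, periostin, a matrix protein of activated fibroblasts, had -0.56 ± 0.17 in TECs, where its levels were below 5 CPM, and -1.95 ± 0.073 in NRK49F. Emilin1, an elastic fibre glycoprotein, fell more in TECs (-2.48 ± 0.13) than in NRK49F (-0.76 ± 0.053), a difference of -1.72 ± 0.13. Bgn, the proteoglycan biglycan, had 20.2, 21.4 and 21.99 CPM in T+N_TECs, against 50.0, 52.2 and 48.3 CPM in Tgfb_TECs. It had 5454, 5187 and 5118 CPM in T+N_49F, against 4893, 4458 and 4725 CPM in Tgfb_49F. It moved opposite ways, to less than 50% of the Tgfb level in TECs (-1.24 ± 0.058) and slightly up in NRK49F (0.16 ± 0.049). Timp1, a metalloproteinase inhibitor, likewise fell in TECs (-0.85 ± 0.068) and rose in NRK49F (0.63 ± 0.088). Of 26 matrix enzymes and inhibitors, 18 fell in TECs and 23 in NRK49F, against 25.8% and 35.1% of all genes, 16 in both, against 14.1%.

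TGF-β and SMAD target genes showed no common direction of the difference. Of 29 tested, 3 rose and 17 fell in TECs, 8 rose and 14 fell in NRK49F, and 9 were lower in both. The 4 opposite members were 1 higher and 3 lower in TECs, against 7.4% and 3.77% of all genes. Over all genes 30.5% rose and 25.8% fell in TECs, 35% rose and 35.1% fell in NRK49F, and 14.1% fell in both. The difference passed for 19 (65.5%, against 62.7% of all genes), 9 more positive and 10 more negative in TECs. Inhba, the activin A subunit, fell in both, with a log2 change of -0.77 ± 0.048 in TECs and -1.81 ± 0.057 in NRK49F. Smad7, the inhibitory SMAD, had -0.34 ± 0.041 in TECs and -0.20 ± 0.066 in NRK49F, where the call was lost without replicate 1 of Tgfb_49F (-0.13) or replicate 3 of T+N_49F (-0.16). Jag1, a Notch ligand, and Snai2, a zinc finger repressor, did not pass in TECs (0.02 and -0.03) and rose in NRK49F (1.19 and 1.27).

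Ccn2, connective tissue growth factor, had 2629, 2562 and 2672 CPM in T+N_TECs, against 2386, 2332 and 2386 CPM in Tgfb_TECs. It had 3190.1, 3779 and 3342 CPM in T+N_49F, against 4152, 4338 and 4213 CPM in Tgfb_49F. It was slightly higher in every T+N_TECs library and lower in every T+N_49F library, with a difference of 0.45 ± 0.063 (adjusted p 4.34e-07). When the control libraries joined the fit, that difference was 0.43 and lost its call, and so did the NRK49F change, at -0.28, so that Ccn2 was then no longer an opposite gene.

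Acta2, smooth muscle actin, had 315, 333 and 320.2 CPM in T+N_TECs, against 316, 329 and 319 CPM in Tgfb_TECs. It had 268, 348 and 265 CPM in T+N_49F, against 188, 225 and 193 CPM in Tgfb_49F. The TEC groups overlapped (0.01 ± 0.029), and in NRK49F the T+N libraries were higher (0.54 ± 0.15), a call that was lost without replicate 1 (0.51) or 3 (0.52) of Tgfb_49F. Tagln, transgelin, rose slightly in TECs (0.08 ± 0.027), a call lost without replicate 2 of Tgfb_TECs (0.07), while in NRK49F it had 44.0, 72.9 and 48.9 CPM in T+N_49F, against 49.5, 52.2 and 51.8 CPM in Tgfb_49F. Replicate 2 was the 1 T+N_49F library above the Tgfb_49F libraries. The difference for Tagln of -0.04 ± 0.21 did not pass, and it was 0.22 and passed without that library. Vim, vimentin, rose in TECs (0.22 ± 0.026) and did not pass in NRK49F (0.05 ± 0.046). The genes Col1a2, Cdh1 and Ddit3 were not tested, the first and last because their symbols did not occur once in each table and Cdh1 because its third-highest library in NRK49F had 0.271 CPM.

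Genes lower in both cell kinds included Mmp9, Nfkbiz and Fos. Mmp9, a gelatinase, had 97.1, 106 and 105 CPM in T+N_TECs, against 274, 282 and 267 CPM in Tgfb_TECs. It had 4.69, 4.01 and 4.59 CPM in T+N_49F, against 12.3, 12.2 and 10.5 CPM in Tgfb_49F. No groups overlapped, and the log2 changes of -1.42 ± 0.035 in TECs and -1.398 ± 0.14 in NRK49F gave a difference of -0.02 ± 0.13, with a 95% interval of -0.28 to 0.25, which did not pass (adjusted p 0.913). Nfkbiz, the inhibitor IκBζ, had 108, 110.3 and 112 CPM in T+N_TECs, against 675, 692 and 665 CPM in Tgfb_TECs. In NRK49F its level was 7.09, 6.77 and 6.50 CPM in T+N_49F, against 23.0, 23.0 and 24.1 CPM in Tgfb_49F. It fell by more in TECs (-2.62 ± 0.03) than in NRK49F (-1.78 ± 0.10), and the difference of -0.85 ± 0.085 passed (adjusted p 6.14e-10).

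Fos, an AP-1 subunit, had 2.13, 2.85 and 1.87 CPM in T+N_TECs, against 9.18, 11.9 and 10.7 CPM in Tgfb_TECs. It had 1.95, 1.88 and 1.08 CPM in T+N_49F, against 5.34, 6.11 and 5.86 CPM in Tgfb_49F. It was several-fold lower in every T+N library, with a log2 change of -2.21 ± 0.15 in TECs and -1.80 ± 0.23 in NRK49F, and its difference of -0.42 ± 0.28 did not pass (adjusted p 0.2). Zc3h12a, an RNase that degrades inflammatory mRNAs, had -1.70 ± 0.041 in TECs and -1.47 ± 0.084 in NRK49F. Its small difference of -0.24 ± 0.089 passed (adjusted p 0.0214) and was lost without any of 3 single libraries, replicate 2 of Tgfb_TECs (-0.21) and replicates 1 (-0.21) and 2 (-0.22) of T+N_49F. Lcn2, a secreted marker of tubular injury, had 534, 527 and 561 CPM in T+N_TECs, against 1367, 1348 and 1382 CPM in Tgfb_TECs. It had 1.12, 1.56 and 1.47 CPM in T+N_49F, against 6.23, 5.21 and 6.00 CPM in Tgfb_49F, so the fall was shared although its NRK49F levels were low. Il6, the cytokine, fell in both (-2.22 ± 0.20 in TECs and -1.48 ± 0.18 in NRK49F), at levels of at most 11.03 CPM, and its difference of -0.74 ± 0.29 lost its call without replicate 3 of T+N_TECs (-0.69) or replicate 2 of T+N_49F (-0.53). Col8a1 had -1.43 ± 0.074 in TECs and -1.72 ± 0.043 in NRK49F, and Thbs2, thrombospondin 2, -1.36 ± 0.14 in TECs and -2.18 ± 0.05 in NRK49F. Megf10, an engulfment receptor, had -1.75 ± 0.16 in TECs and -6.69 ± 0.16 in NRK49F, where its level was 0.447, 0.365 and 0.319 CPM in T+N_49F, against 43.4, 36.7 and 39.6 CPM in Tgfb_49F. Of the 27 immediate early genes, which include Fos, 16 fell in TECs and 17 in NRK49F, against 25.8% and 35.1% of all genes, 14 in both, against 14.1%. Of their differences 14 were more positive and 8 more negative in TECs, against 31.6% and 31.1%. In that list Atf3, a stress-induced factor, had a shallower fall in TECs (-0.78 ± 0.076) than in NRK49F (-2.60 ± 0.24), and Nr4a1, an orphan nuclear receptor, had -0.86 ± 0.13 in TECs and -1.96 ± 0.21 in NRK49F. Zfp36, tristetraprolin, which destabilises cytokine mRNAs, had 20.9, 20.8 and 21.9 CPM in T+N_TECs, against 61.0, 59.9 and 59.2 CPM in Tgfb_TECs. It had 21.3, 27.5 and 23.4 CPM in T+N_49F, against 27.1, 27.3 and 28.5 CPM in Tgfb_49F. It fell in TECs (-1.503 ± 0.055), whereas its NRK49F groups overlapped through replicate 2 of T+N_49F, and the change there of -0.20 ± 0.092 did not pass but did so, at -0.30, without that library.

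Spp1, osteopontin, made by injured tubules, had 1750.5, 1784 and 1719 CPM in T+N_TECs, against 3633, 3633 and 3724 CPM in Tgfb_TECs. It had 242, 200.2 and 226 CPM in T+N_49F, against 2652, 2606 and 2529 CPM in Tgfb_49F. Both falls were without overlap, and that in TECs was shallower (-1.06 ± 0.023) than that in NRK49F (-3.54 ± 0.064). In the controls it averaged 7131 ± 89.7 CPM in Con_TECs and 232 ± 73.7 CPM in Con_49F (SD, n = 3 each).

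**Figure D4:**
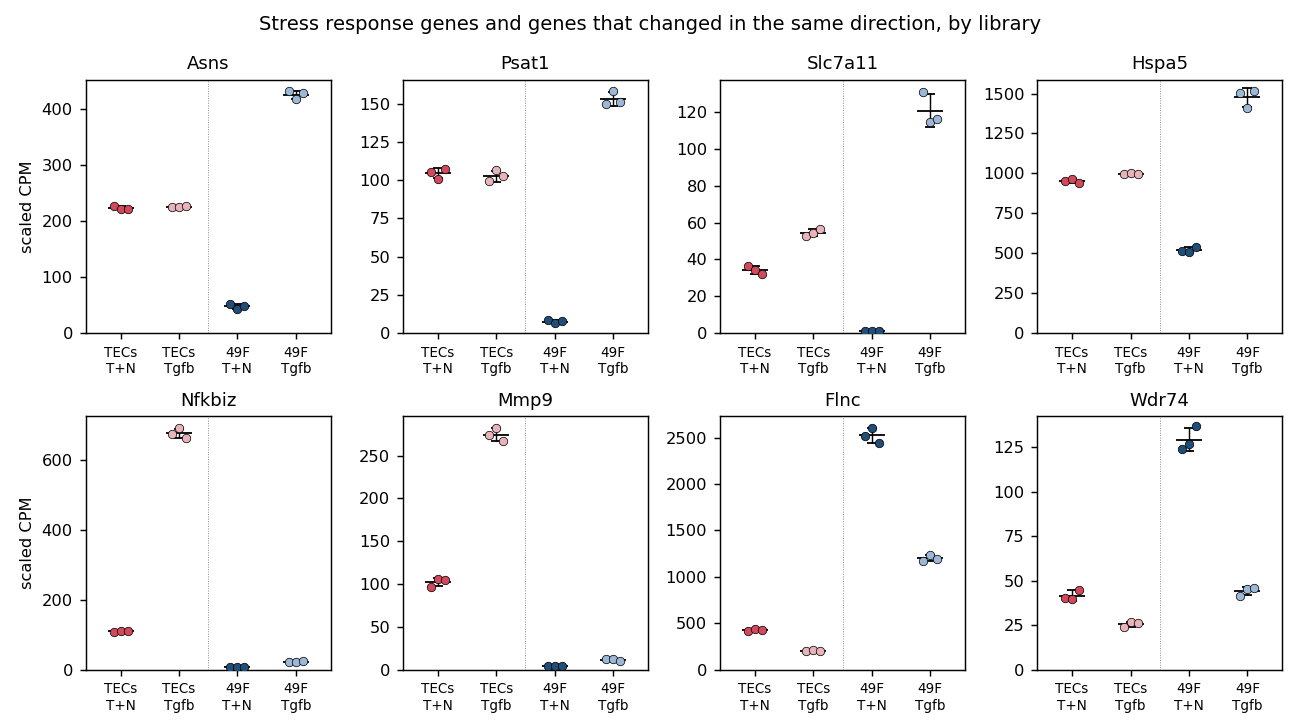
Scaled CPM by library for 4 stress response genes (top) and 4 genes that moved the same way (bottom), with T+N left of Tgfb in TECs and in NRK49F (49F), each point 1 of 3 libraries and the bars the mean and SD. Asns and Psat1 are level in TECs and many-fold lower with narciclasine in NRK49F, while Nfkbiz and Mmp9 are lower and Flnc and Wdr74 higher with it in both.

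Ribosome biogenesis genes rose in both cell kinds. Of 37 tested, 31 rose in TECs and 36 in NRK49F, against 30.5% and 35% of all genes, none fell, and the 31 that rose in TECs rose in both, against 16.4% of all genes. The difference passed for 29, and in 27 the rise was larger in NRK49F. Medians were 0.43 in TECs and 0.73 in NRK49F. Wdr74, a factor of large ribosomal subunit assembly, had 40.0, 40.0 and 45.0 CPM in T+N_TECs, against 23.9, 26.8 and 26.0 CPM in Tgfb_TECs. It had 124, 127 and 137 CPM in T+N_49F, against 41.5, 45.1 and 45.8 CPM in Tgfb_49F. All T+N libraries were higher, with 0.71 ± 0.062 in TECs, 1.55 ± 0.058 in NRK49F and a difference of -0.84 ± 0.087 (adjusted p 1.06e-09). Wdr43, a factor of the small subunit processome, had 0.57 ± 0.037 in TECs and 1.47 ± 0.044 in NRK49F. Nsun5, an rRNA methyltransferase, rose by 0.86 in TECs and 1.05 in NRK49F, and its difference of -0.18 ± 0.16 did not pass.

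Flnc, filamin C, which cross-links actin, had 416, 434 and 428 CPM in T+N_TECs, against 206, 210.0 and 201 CPM in Tgfb_TECs. It had 2522, 2608 and 2439.9 CPM in T+N_49F, against 1172, 1235 and 1194 CPM in Tgfb_49F. Its level was about doubled in every T+N library of both cell kinds, with 1.05 ± 0.029 in TECs and 1.07 ± 0.046 in NRK49F. The difference was -0.02 ± 0.053, with a 95% interval of -0.13 to 0.09 (adjusted p 0.729). Nr1d1, the clock repressor REV-ERBα, had 1.11 ± 0.10 in TECs and 1.91 ± 0.089 in NRK49F. Mrm3, a mitochondrial rRNA methyltransferase, and Sars2, the mitochondrial seryl-tRNA synthetase, rose by 1.12 and 0.91 in TECs and by 2.19 and 1.51 in NRK49F. Dusp10, a phosphatase of stress kinases, rose by 0.94 in TECs and 1.398 in NRK49F, and Zbtb40, a zinc finger protein, by 0.89 in TECs and 1.75 in NRK49F. Rangrf, a Ran-binding protein, rose by 0.94 in TECs and 0.98 in NRK49F, and its difference of -0.04 ± 0.26 did not pass.

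Most translation factor genes rose in each cell kind. Of 39 initiation and elongation factors, 26 rose and 7 fell in TECs and 27 rose and 8 fell in NRK49F, against 30.5% and 35% of all genes that rose. In both cell kinds 20 rose, against 16.4%. Eif2b4, a subunit of the exchange factor of eIF2, rose by 0.53 in TECs and 1.63 in NRK49F. Eif4ebp1, an inhibitor of cap-dependent initiation that ATF4 is known to induce, fell in both (-0.28 ± 0.044 in TECs and -1.82 ± 0.091 in NRK49F). Of 22 cytosolic aminoacyl-tRNA synthetases, 12 could not be tested because their symbols did not occur once in each table. Of the other 10, 6 rose and 1 fell in TECs, against 30.5% and 25.8% of all genes, and 6 rose and 4 fell in NRK49F, against 35% and 35.1%. Cars and Aars, the cysteinyl and alanyl synthetases, did not pass in TECs (0.05 and -0.04) and were among the falls in NRK49F (-2.002 and -1.25). Of 45 cytosolic ribosomal protein genes, 8 rose and 4 fell in TECs, a share of rises below the 30.5% of all genes, while with total counts alone 14 rose. In NRK49F 19 rose and 2 fell, and that share of rises is near the 35% of all genes. Rpl11 did not pass in TECs (0.04) and rose in NRK49F (0.98). Ribosomal protein genes have many processed copies, and reads of these could have been split in counting.

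Proteasome and respiratory chain genes rose more in NRK49F. Of 30 proteasome subunits, 16 rose and 4 fell in TECs and 23 rose and 1 fell in NRK49F, against 30.5% and 35% of all genes that rose. The difference was more negative in TECs for 21, against 31.1%, and more positive for none. Psmc6, an ATPase of the proteasome cap, had 0.20 ± 0.033 in TECs and 1.17 ± 0.047 in NRK49F. Of 26 oxidative phosphorylation genes, 10 rose and 3 fell in TECs, a share of rises near the 30.5% of all genes, and 18 rose and 1 fell in NRK49F, against 35% that rose. The difference was more negative in TECs for 16, against 31.1%, and more positive for 2. Ndufb10, a subunit of respiratory complex I, had 0.20 ± 0.068 in TECs, a call lost without replicate 3 of T+N_TECs (0.17), and 1.36 ± 0.066 in NRK49F.

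The remaining lists gave mixed values. Of 17 heat shock proteins, 11 rose and 1 fell in TECs, against 30.5% and 25.8% of all genes. In NRK49F 12 rose and 4 fell, against 35% and 35.1%. The difference was more positive in TECs for 6 and more negative for 6, near the 31.6% and 31.1% of all genes. In that list Hspa1b, which has a near-identical copy in Hspa1a, rose in TECs (0.55) and fell in NRK49F (-0.84), a call lost without replicate 2 of Tgfb_49F (-0.43) or replicates 1 (-0.80) or 3 (-0.61) of T+N_49F. Of 19 YAP and SRF target genes, 10 rose in each cell kind, against 30.5% of all genes in TECs and 35% in NRK49F. In both cell kinds 8 rose, against 16.4% of all genes. In that list Ankrd1, a cardiac ankyrin repeat protein, fell in both, by less in TECs (-0.21 ± 0.027) than in NRK49F (-1.58 ± 0.38), where its level was at most 1.45 CPM. Of 19 glycolysis and hypoxia genes, 4 rose and 10 fell in TECs, against 30.5% and 25.8% of all genes. In NRK49F 7 rose, near the 35% of all genes, and 5 fell, against 35.1%. Egln3, a HIF prolyl hydroxylase, had a log2 change of -1.28 ± 0.19 in TECs, at levels below 5 CPM, and 0.46 ± 0.077 in NRK49F. Vegfa, the endothelial growth factor, fell in both (-0.34 ± 0.039 in TECs and -1.27 ± 0.12 in NRK49F). Of 25 epithelial junction and keratin genes, 7 passed the level rule in both cell kinds and the others were not tested. Of the 7, 6 rose and 1 fell in TECs, against 30.5% and 25.8% of all genes. In NRK49F 1 rose and 3 fell, against 35% and 35.1%.

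**Figure D5:**
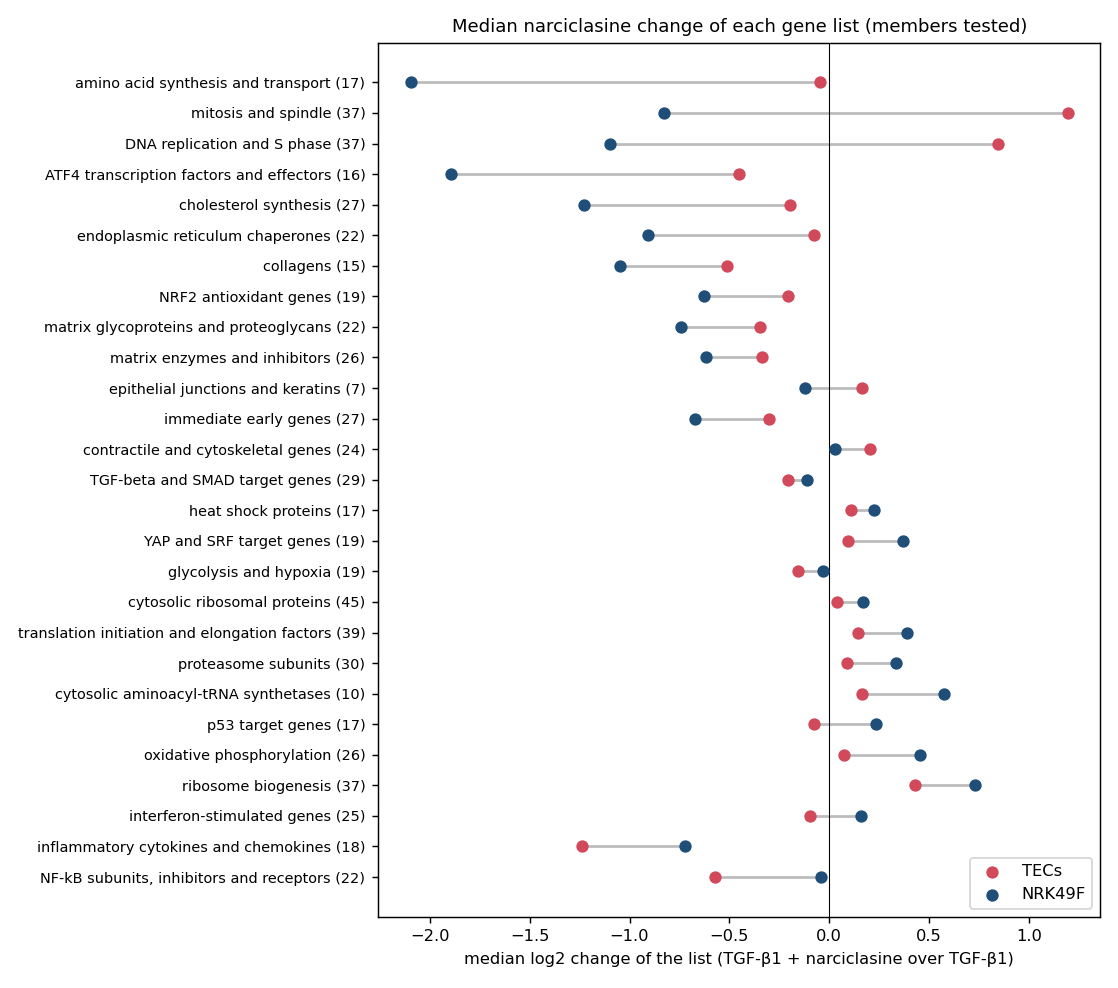
Median log2 change with narciclasine (T+N over Tgfb) of the tested members of 27 gene lists, in TECs and in NRK49F, ordered by the median difference, with the number of members tested in brackets. Mitosis (1.19 in TECs and -0.82 in NRK49F) and DNA replication (0.85 in TECs and -1.10 in NRK49F) lie on opposite sides of 0, and the medians of inflammatory and NF-κB genes are lower in TECs.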

How the data were processed

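RNA of 12 treated libraries, 3 each of T+N_TECs, Tgfb_TECs, T+N_49F and Tgfb_49F, was compared, with 3 control libraries of each cell kind given for their levels. Per the labels' protocols, polyadenylated RNA was made into libraries with the NEBNext Ultra kit and sequenced on an Illumina NovaSeq. Per the submitters' processing notes, HISAT2 2.1.0, featureCounts, DESeq2 and mm10 were used, with no role given, while neither the rat genome build nor the strand setting is given in the sources used here. The authors deposited 1 table of raw counts per gene for each cell kind, and 0 columns belonged to other series. Without strand, reads of overlapping or antisense genes cannot be told apart. The authors' gene-level counting could split reads between near-identical copies, such as Hspa1a and Hspa1b or the ribosomal protein genes, and these are uncertain. For 14 tested genes the rat counts were identical to those of another entry.

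Genes were matched by upper-cased symbol and kept at 1 CPM in 3 or more libraries of each cell kind. TMM factors were computed within each cell kind. The effect in each cell kind came from edgeR 4.0.16 (R 4.3.3) quasi-likelihood fits of its 6 libraries, and the difference from 1 fit of 12 libraries with a contrast of contrasts, with Benjamini-Hochberg adjustment over all genes tested. SEs were taken from the log2 change and the F statistic, and 95% intervals from them with the degrees of freedom of the fit. The fit of 12 libraries gives each gene 1 spread shared by both cell kinds. The SE, interval and p-value of a difference can thus understate the error for genes that are noisier in NRK49F. With limma voom weighted per cell kind, 5784 genes had a difference. Libraries held 14695732 to 22867693 counts, and the median SE of the difference was 0.10. In NRK49F, replicate 2 stood apart from the others.

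Genes named are preset genes, the 8 largest opposite differences each way and the 8 largest shared changes each way with at least 5 CPM and no overlap, and up to 4 members of each of 27 gene lists and 4 lists of cell type markers with the largest differences. A further 13 exceptions to their lists were chosen after their values were seen. The members, lists and rules were all chosen with earlier results of these data known. Alternatives were other scalings, other filters, DESeq2 1.42.0, limma 3.58.1 voom, all 18 libraries, a replicate block, a stricter threshold and leaving out libraries. Promoter and coordinate data are from RefSeq on GRCm38.p6, where 7622 of the 9388 genes had a promoter entry; rat sequences were not used here. Some genes that the naming rule chose are not reported here.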

Additional observations from a re-analysis of the deposited data

Results flagged for a closer look

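The narciclasine effect differed between the cell kinds, by the test of the difference itself, for 5888 of 9388 genes. Opposite changes that passed in each cell kind were seen for 695 genes higher in TECs and lower in NRK49F and for 354 lower in TECs and higher in NRK49F. Among these opposite genes with at least 5 CPM and no overlap between groups, the largest positive differences (log2 change in TECs minus that in NRK49F) were 4.02 for E2f7, 3.94 for Erfe, 3.83 for Pdzd2, 3.74 for Cdc6, 3.54 for Exo1, 3.39 for Clspn, 3.20 for Mybl2 and 3.01 for Mcm5. E2f7, Cdc6, Exo1, Clspn, Mybl2 and Mcm5 act in the cell cycle or DNA repair. The largest negative differences were -3.84 for Ccl7, -2.41 for Nfkbia, -2.32 for Mdm2, -2.18 for Slfn2, -2.12 for Mgmt, -1.87 for Eda2r, -1.75 for Gadd45b and -1.75 for Mmab. All 16 genes were chosen for the size of this difference, so their values describe the choice.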

How the results depend on the processing

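Of 168 genes chosen by the naming rule or as exceptions, 151 kept the call and direction of their difference under every alternative that tested them. Genes were tested under 19 to 24 of 24 alternatives, and an alternative that did not test a gene could not change its call. Ankrd1, Cxcl3, Des, Il1rn and Oas1a were tested under only 19. No gene moved between the same-direction and opposite-direction classes under any alternative that tested it. Of the counts of genes with a difference, in the same direction and in opposite directions, each also by sign, the 354 genes lower in TECs and higher in NRK49F moved by over 1.5 times in a single case, to 210 at an adjusted p under 0.01. Differences near 0 changed sign. Without both NRK49F replicate 2 libraries, Rangrf was 0.23 and Tagln 0.19. Leaving out 1 library at a time gave ranges of -0.18 to 0.13 for Rangrf, -0.093 to 0.042 for Mmp9 and -0.18 to 0.22 for Tagln. Leaving out 1 library gave 5588 to 5864 genes with a difference, 2621 to 2800 in the same direction and 934 to 998 in opposite directions. Counts within lists moved by over 1.5 times in a few cases, such as interferon-stimulated genes that rose in NRK49F (13, but 8 of the 17 tested at a minimum of 5 CPM) and ribosomal protein genes that rose in TECs (8, but 18 with a replicate block). The cause of these changes was not tested.

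Replicate numbers are shared between groups. Deviations of same-numbered libraries had correlations of 0.0707, 0.283 and -0.0469 in TECs, and 0.00718, 0.107 and 0.188 in NRK49F. Only replicate 2 in TECs and replicates 2 and 3 in NRK49F correlated best with their own number. These values cannot tell whether the numbers pair the samples, and the main fits did not pair them. With a replicate block, 6061 genes had a difference, 2964 moved in the same direction and 1083 in opposite directions.

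DESeq2 gave 5705, 2466 and 829 genes for these 3 counts. Depth of at least 14695732 counts a library leaves genes at a few CPM with the widest errors. With 3 libraries a group and 1 species per cell kind, the p-values cover the spread between these libraries only.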
